A study of Drosophila melanogaster with 29 samples.

Results

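Males of the laboratory strain Antigua were set against males of France, Glasgow, Cambridge and Hikone, to find the transcripts whose level in newly emerged males of Antigua differs from that of the other strains. Whole flies of 5 strains of Drosophila melanogaster were measured on 29 Affymetrix Drosophila Genome 1 arrays, of which 15 carry RNA of males and 14 RNA of females. The comparison takes the 3 Antigua male arrays against the mean of the 4 group means of France, Glasgow, Cambridge and Hikone males, with 3 arrays in each of these groups. It covers 13966 probe sets, after 44 array controls were left out, and 83 probe sets met the rule, given below, for being set apart in Antigua males. Antigua is a wild-type stock of Caribbean origin, Hikone comes from Japan, and France is the Kerbiniou stock. Glasgow and Cambridge are stocks of Oregon-R established in those cities, and per the study all 5 strains had been maintained in Cambridge. The labels also write Oregon R beside Hikone, although the methods of the study describe Hikone as a wild-type strain of its own. The labels name no transgene, mutation or treatment in any group. All males were 0 to 6 hours old after eclosion and had been reared at 25°C. The females were virgins of the same age with 3 arrays a strain, except that Hikone has 2 arrays and that France female 3 is labelled as aged for 3 to 5 days. Each sample was a group of flies with RNA extracted on its own, and each strain was represented by 1 long-kept laboratory stock, so that a difference here belongs to these stocks and not to the populations they came from.

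Wild-type stocks of Drosophila carry different alleles at many loci, and strains kept apart in the laboratory differ in the transcript levels of detoxification enzymes, immune genes, digestive enzymes and genes expressed in the testis. Cytochrome P450 enzymes, UDP-glycosyltransferases and transporters act together in the handling of insecticides and plant toxins, mainly in midgut, Malpighian tubule and fat body. The male reproductive tract expresses many transcripts that are absent from females, and in flies that have just emerged the gut and the cuticle are still maturing. In whole flies, fewer cells of a type and less RNA per cell cannot be told apart.

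The values are GCRMA summaries on the log2 scale, in which a difference of 1 is a 2-fold difference, and values near 2 to 4 lie in the range of probe sets with little or no signal, where differences are less reliable. The 3 Antigua male arrays resembled each other, with a correlation between replicates of 0.995 to 0.996, against a lowest value of 0.975 among Cambridge males. Cambridge male 1 also carried ovarian transcripts, and the mean of 35 ovary, eggshell and yolk genes reached 6.17 on that array, against 2.98 to 3.19 in Antigua males, 3.00 to 3.46 on the remaining male arrays of other strains and 8.08 to 9.71 in females. Without Cambridge male 1, 205 probe sets were called in place of 210, and 80 in place of 83 were set apart. The markers of males were present in Antigua males. The mean of 49 testis and sperm genes was 7.90 to 8.03 in Antigua males, against 7.42 to 8.26 in the other males, and that of 26 accessory gland genes was 9.89 to 10.07 in Antigua males, against 9.33 to 10.61. In females these 2 means reached at most 4.09 and 3.76, both on Cambridge female 3. The lowest correlation between replicates in any group was 0.962, in Cambridge females. The labels number the arrays in one run for each strain, so that strain and array order cannot be told apart. The p-values and standard errors measure only the spread between replicates within each group of strain and sex. The spread among the other strains does not enter them.

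Antigua males differed from males of the other strains in 210 of 13966 probe sets, or 1.50%, at a Bonferroni adjusted p below 0.01 (limma). Of these, 120 (0.859% of all tested) were higher and 90 (0.644%) were lower in Antigua males, and 124 (0.888%) differed by more than 2-fold, 78 (0.558%) higher and 46 (0.329%) lower. The median difference over all probe sets was -0.035 on the log2 scale. A probe set was taken as set apart when it was called, differed by more than 2-fold and had all 3 Antigua arrays outside the range of the 12 other male arrays. This left 83 probe sets (0.594%), namely 55 higher probe sets (0.394%) and 28 lower ones (0.200%). Of these, 67 carry 1 gene symbol, 6 carry several and 10 carry none. The other 41 called probe sets with a difference over 2-fold overlapped with at least 1 array of another strain. At an unadjusted p below 0.05, 3358 probe sets differed. Against single strains, with the same Antigua arrays in each comparison, 468 probe sets (3.35%) were called against France males, 208 (1.49%) against Glasgow, 254 (1.82%) against Cambridge and 223 (1.60%) against Hikone males. Of the 83 set apart, 18 were called in the same direction against each of the 4 other strains. A further 26 were called so against 3 strains, 21 against 2, 15 against 1 and 3 against 0.

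**Figure D1:**
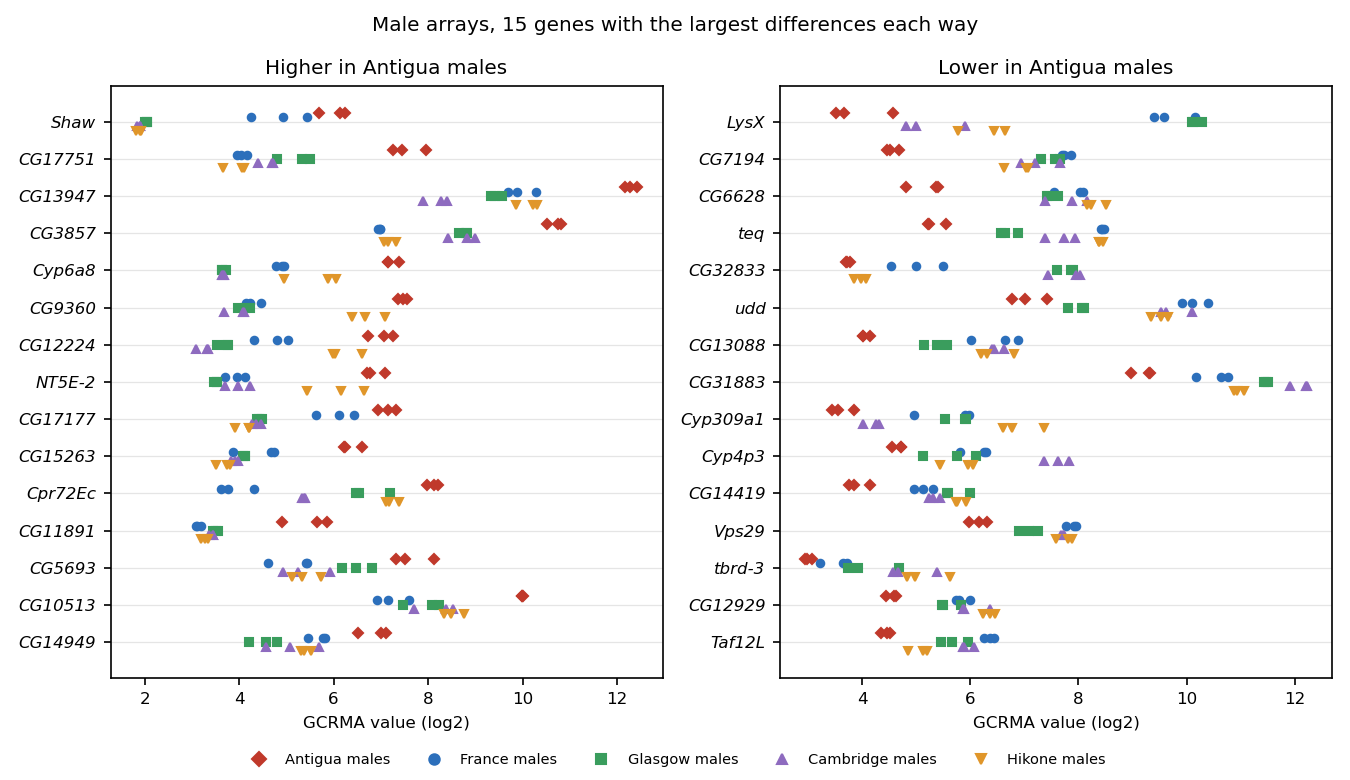
GCRMA values (log2) on the male arrays for the 15 genes with the largest positive and the 15 with the largest negative difference among those set apart, with Antigua as red diamonds above the other strains within each row. In every row the 3 Antigua arrays lie outside the range of the 12 other male arrays, whose own spread is wide for genes such as Cpr72Ec and LysX and narrow for genes such as CG11891.

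Genes of xenobiotic metabolism were found on both sides of the comparison. Of 84 measured cytochrome P450 genes, 4 were higher and 3 were lower in Antigua males, against 0.859% and 0.644% of all probe sets, and the median difference of the 84 was -0.04, against -0.035 over all probe sets. Cyp6a8, a P450 known for its raised expression in insecticide-resistant strains and its induction by drugs, had 7.38, 7.15 and 7.16 on the Antigua male arrays, against 3.63 to 6.04 (median 4.25) in the other males. All 3 Antigua arrays lay above the highest of the other arrays, a Hikone male, and Glasgow and Cambridge males were near 3.67. The difference was 2.77 ± 0.13 on the log2 scale (SE), a 6.83-fold higher level (adjusted p = 3.93e-11, limma). Cyp6w1, which is known to be inducible by DDT, had 10.63, 10.65 and 10.41 in Antigua males, against 7.84 to 10.22 (median 9.13) in the other males, a difference of 1.43 ± 0.20 (adjusted p = 0.006). Its Antigua arrays were just above the highest arrays of Cambridge and Hikone males and far above those of France and Glasgow. The call was lost when any 1 of 23 arrays was left out. It was also lost with France or Glasgow left out of the mean and with the quantile normalization repeated. Cyp6a20, a P450 known from male aggressive behaviour, had 8.42, 8.29 and 8.40 in Antigua males, and Hikone males, at 8.11, 8.26 and 8.52, overlapped with them while the group means of France, Glasgow and Cambridge were 6.28, 6.50 and 6.31. Cyp28a5 showed the same kind of overlap with Glasgow males, and its difference was 1.31 ± 0.18 (adjusted p = 0.0074), a call lost when any 1 of 21 arrays was left out and with France or Cambridge left out of the mean.

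The lower P450 genes were Cyp309a1, Cyp4p3 and Cyp12d1-d. Cyp309a1 had 3.45, 3.56 and 3.85 in Antigua males, against 4.02 to 7.37 (median 5.91) in the other males, with a difference of -2.01 ± 0.18 (adjusted p = 7.17e-06). Cyp4p3 had 4.56, 4.72 and 4.72 in Antigua males, against 5.12 to 7.82 (median 6.08), with a difference of -1.64 ± 0.18 (adjusted p = 0.000133). In both genes the Antigua arrays lay below every other male array, and the nearest groups were Cambridge males for Cyp309a1 and Glasgow males for Cyp4p3. Cyp12d1-d, another gene known to respond to DDT, was at 3.19, 3.18 and 3.10 in Antigua males and as low in France males, at 3.05, 2.99 and 2.96, while Cambridge males were at 7.13, 8.05 and 8.22. Its difference of -1.73 (adjusted p = 9.87e-06), like that of Cyp4p3, was not called once Cambridge was left out of the mean of the other strains.

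**Figure D2:**
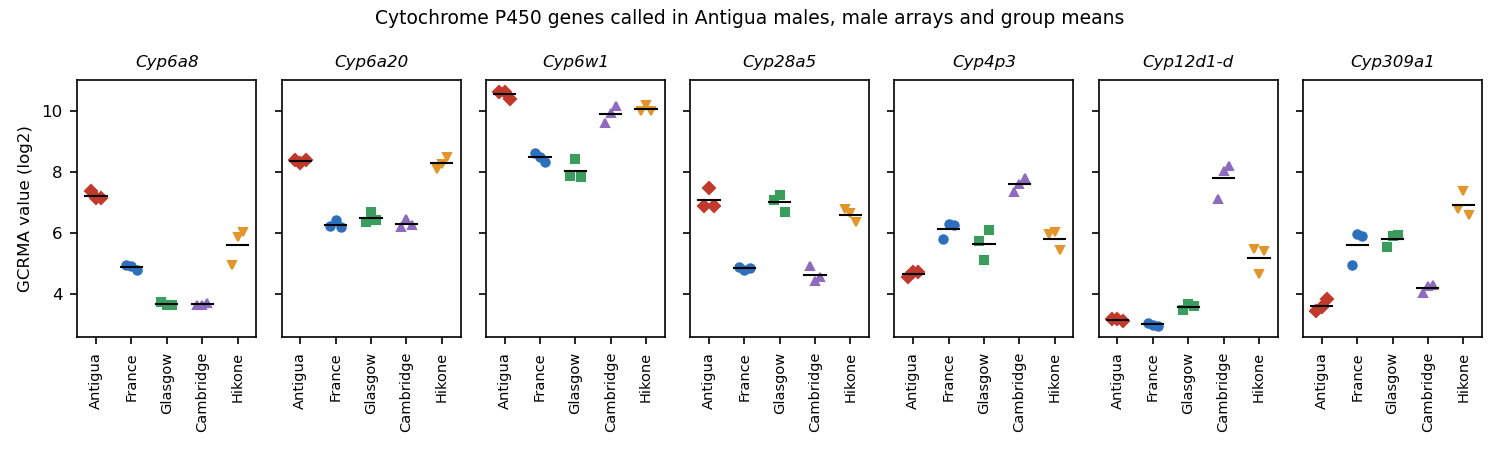
GCRMA values (log2) of the 7 P450 genes called in Antigua males, with 1 point for each male array, grouped by strain with Antigua first, and black lines at the group means. Antigua males do not overlap with other males for Cyp6a8, Cyp4p3, Cyp309a1 and, narrowly, Cyp6w1. They overlap with Hikone males for Cyp6a20 and with Glasgow males for Cyp28a5, while for Cyp12d1-d they lie just above France males and below the rest.

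Other enzymes and transporters of this kind followed gene by gene, where over all probe sets 0.859% were higher and 0.644% were lower. Of 33 UDP-glycosyltransferases, which attach sugars to small molecules for excretion, 1 was higher and 0 were lower. This was Ugt35C1, with 7.67, 8.26 and 8.12 in Antigua males, against 3.46 to 8.11 (median 5.86) in the other males, where Hikone males overlapped with Antigua males. Of 36 glutathione S-transferases, 0 were higher and 1, GstO2, was lower by its brightest probe set (-0.74 ± 0.07, adjusted p = 8.12e-06), while its other probe sets differed by -0.19 and -0.33 and were not called. Of 31 genes of Malpighian tubule function and transport, 1 was higher and 0 were lower. It was Oatp58Dc, an organic anion transporter of the tubule, with 8.94, 8.98 and 8.76 in Antigua males, against 6.90 to 8.07 (median 7.54) (1.39 ± 0.18, adjusted p = 0.0033), and its Antigua arrays lay above all others. A second, dim probe set of Oatp58Dc differed by 0.04. Of 15 esterases and juvenile hormone enzymes, 1 was higher, Ace, the acetylcholinesterase that organophosphates and carbamates inhibit. Ace had 7.34, 7.47 and 7.23 in Antigua males, and Hikone males reached 7.0 on average, so that the groups overlapped (difference 1.22 ± 0.16, adjusted p = 0.0026).

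The set-apart genes CG9360, CG2065, CG12224 and CG10863 encode oxidoreductases, which were not in the lists and were not counted as a group. CG9360, of the short-chain dehydrogenase family, had 7.36, 7.56 and 7.47 in Antigua males, against 3.67 to 7.08 (median 4.18) in the other males, a 6.5-fold difference (log2 2.70 ± 0.19, adjusted p = 3.7e-08). Hikone males were nearest, at 6.67, 7.08 and 6.39, and the remaining group means were 4.28 in France, 4.11 in Glasgow and 3.95 in Cambridge males. CG2065, a further short-chain dehydrogenase, differed by 1.64 ± 0.13, with 6.77, 6.74 and 6.76 in Antigua males, against 4.21 to 5.93 (median 5.25). CG12224, of the aldo-keto reductase family, had 6.72, 7.06 and 7.26 in Antigua males, against 3.09 to 6.61 (median 4.04) (2.55 ± 0.16, adjusted p = 5.22e-09), again with Hikone males nearest. CG10863, also of the aldo-keto reductase family, went the other way, with 8.55, 8.74 and 8.55 in Antigua males, against 8.96 to 10.11 (median 9.78) (-1.07 ± 0.08, adjusted p = 5.73e-08). The remaining members of this family are not given here.

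The genes CG11891 and CG10513, which lie close together on chromosome arm 3R, were higher in Antigua males. They and several genes next to them on the side of CG11878 belong to the ecdysteroid kinase-like family, named for enzymes that phosphorylate ecdysteroid hormones in other insects. CG11891 had 5.86, 5.65 and 4.90 in Antigua males, against 3.09 to 3.55 (median 3.35) in the other males, a difference of 2.14 ± 0.11 (adjusted p = 1.86e-10). The 12 other arrays were near the low end of the scale and close to each other, and no Antigua array came close to them. Its neighbour CG10513 was brighter, with 10.01, 9.98 and 9.99 in Antigua males, against 6.92 to 8.75 (median 8.15), a difference of 2.03 ± 0.24 (adjusted p = 0.000564). A pair of probe sets that match both CG11889 and CG11891 was set apart as well, at differences of 1.60 and 1.50, and these cannot be assigned to either gene. Between and beside them, CG10514 (log2 difference 1.52, adjusted p = 0.0286), CG11878 (0.82) and CG11892 (1.10) were not called in males. CG13658, a further gene of the family, was lower, at -0.50 (adjusted p = 0.0016). In Antigua females CG10513 (2.42, adjusted p = 3.51e-05) and CG10514 (1.90, adjusted p = 0.0013) were higher, and CG11891 differed by 0.33 and was not called. The genes on the other side of CG11891, from RIOK2 onward, were not called in males, with differences of -0.56 to -0.05 up to bam. Genes of the family may share sequence, and how far signal from one reaches the probes of another was not tested.

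The Cyp6a genes of arm 2R form a similar row. Besides Cyp6a8 and Cyp6a20, Cyp6a9 differed by 1.43 in Antigua males (adjusted p = 0.0264) and was called in Antigua females (1.61, adjusted p = 0.0054). For Cyp6a9 this rested largely on France, at means of 1.63 in males and 1.79 in females. Antigua males, at 7.31, were below Glasgow and Hikone males, at 7.62 and 7.71. Antigua females, at 6.69, were below Hikone females, at 7.42. Cyp6a21, which lies between Cyp6a20 and Cyp6a8, differed by 0.33, and Cyp6a19 by -0.71, neither of them called. Of 10818 measured genes placed in the Release 6 gene table, 183 were called in Antigua males, and these formed 4 pairs of direct neighbours and 0 runs of 3 or more. CG3285 and CG15408 were both higher, as were Clk and CG32369. CG13088 was lower beside Dh31, which was higher, and CG6628 was lower beside CG8072, which was higher. The set-apart probe sets with a place in the table comprised 5 higher and 1 lower of 2088 measured on X, 10 higher and 5 lower of 2238 on 2L, 7 higher and 10 lower of 2474 on 2R, 9 higher and 6 lower of 2421 on 3L, and 11 higher and 3 lower of 3142 on 3R. No arm was tested against the others.

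**Figure D3:**
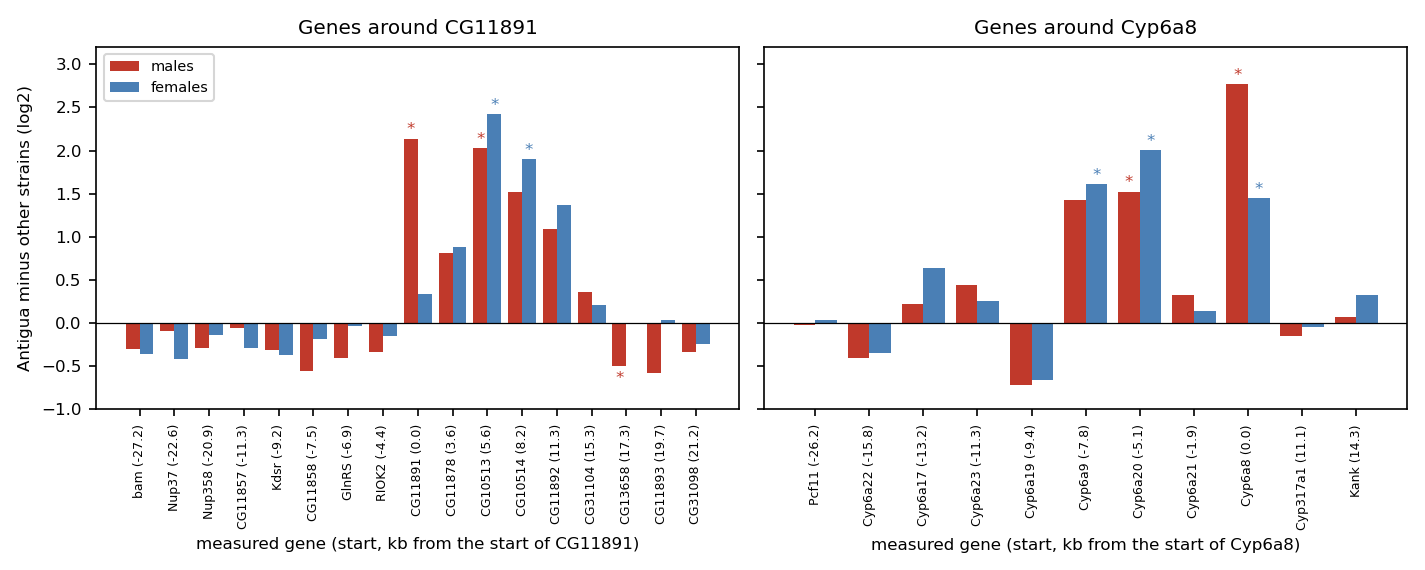
Difference of Antigua from the other strains (log2) for measured genes within 30 kb of CG11891 on 3R and of Cyp6a8 on 2R, with males in red beside females in blue, genes in chromosome order, and the distance of each start in kb in brackets. Asterisks mark differences called at an adjusted p below 0.01, and the raised genes stand next to others that differ little.

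The set-apart genes CG13947, CG3857, CG17751 and Cpr72Ec were called higher in both sexes. CG13947 had 12.17, 12.28 and 12.43 in Antigua males, against 7.89 to 10.30 (median 9.63) in the other males, a 7.29-fold difference (log2 2.87 ± 0.34, adjusted p = 0.000531). A second probe set of the gene differed by 2.84 but varied more and was not called in males (adjusted p = 0.1512). CG3857 had 10.51, 10.82 and 10.74 in Antigua males, against 6.98, 6.99 and 6.93 in France males and 7.14, 7.06 and 7.33 in Hikone males, with the Glasgow and Cambridge means between at 8.76 and 8.75. Its difference of 2.78 ± 0.10 (adjusted p = 7.12e-14) was smaller than that in females, where Antigua averaged 10.35 and the other strains 5.84 to 7.21 (4.04, adjusted p = 4.61e-17). CG17751 had 7.44, 7.96 and 7.25 in Antigua males, against 3.66 to 5.50 (median 4.28), an 8.58-fold difference (3.10 ± 0.17, adjusted p = 8.08e-10), and its Antigua arrays lay well above those of every other strain. Cpr72Ec, a cuticle protein of the Rebers and Riddiford family, had 8.12, 8.21 and 7.97 in Antigua males, against 3.61 to 7.38 (median 5.93). It was the single gene called among 73 of cuticle and tanning, whose median difference was -0.06, against 1.50% called over all probe sets. France males, near 3.90, were the farthest from Antigua males.

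Some of the transcripts higher in Antigua males had little signal in females. Of the 55 set-apart higher probe sets, 23 had a mean below 5 in females of all 5 strains, a smaller share than the 52.1% of all probe sets. The 52.1% include probe sets without signal in any group, which the 2-fold rule in males tends to leave out. The shares are thus not alike, and nothing is drawn from them. The leading one of the 23 was Shaw, which encodes a voltage-gated potassium channel. Shaw had 5.69, 6.14 and 6.23 in Antigua males, 4.26, 5.43 and 4.93 in France males and 1.81 to 2.06 in the other males, while the female group means were 1.78 to 1.92 and 1.88 in Antigua. Antigua and France males thus showed a signal that the remaining males and all females lacked, and Antigua males differed from the mean of the others by 3.35 ± 0.13 (adjusted p = 1.05e-12). The second probe set of Shaw was near 1.34 in Antigua males and differed by -0.04, so that the signal was seen on 1 of the probe sets of the gene. NT5E-2, a 5′-nucleotidase, had 6.70, 7.09 and 6.78 in Antigua males, against 5.43, 6.16 and 6.64 in Hikone males and group means of 3.93, 3.51 and 3.97 in France, Glasgow and Cambridge males. CG17177 had 7.14, 7.32 and 6.94 in Antigua males, against 3.92 to 6.44 (median 4.40), with France males nearest. CG15263 had 6.25, 6.21 and 6.60 in Antigua males, against 3.51 to 4.73 (median 3.94), and its difference was 2.32 ± 0.12 (adjusted p = 1.35e-10). In females these transcripts stayed at the low end of the scale in every strain, at means of 3.44 to 3.54 for NT5E-2, 4.11 to 4.40 for CG17177 and 3.76 to 4.0 for CG15263 outside Antigua. The same held for CG5693 and CG4704, which were set apart in males by 2.06 and 1.64 and differed by 0.19 and 0.08 in females. An Antigua male mean of at least 5 with means below 5 in all 4 other male groups was found for 9 of the higher probe sets, among them CG15263 and CG11891. The rule for being set apart uses the same male values and favours such a pattern, and its share over all probe sets was not computed.

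Of the 28 set-apart lower probe sets, 12 had means below 5 in females of all 5 strains, again a smaller share than the 52.1% of all probe sets and with the same limit. CG6628, CG31883 and CG32833 were among these 12. CG6628 had 4.82, 5.36 and 5.40 in Antigua males, against 7.39 to 8.51 (median 7.96) in the other males, a 6.4-fold lower level (log2 -2.68 ± 0.14, adjusted p = 2.4e-10). The 12 other arrays lay close together, and the Antigua arrays were clearly below the lowest of them. CG31883 was bright in all males and still lower in Antigua, with 8.97, 9.31 and 9.33 in Antigua males, against 10.17 to 12.22 (median 11.24), a 4.16-fold lower level (-2.06 ± 0.10, adjusted p = 3.26e-11). CG32833 was at 3.78, 3.73 and 3.71 in Antigua males, while Glasgow males were at 7.60, 7.87 and 7.89, Cambridge males at 7.44, 7.95 and 8.02 and Hikone males at 3.86, 3.98 and 4.07. Hikone males thus lacked most of this signal too, although their arrays were just above those of Antigua. The largest difference of all was that of PH4alphaNE3, a prolyl 4-hydroxylase subunit, with 3.14, 3.34 and 2.99 in Antigua males, 3.0, 2.91 and 2.84 in Hikone males and group means of 8.78, 9.97 and 10.60 in France, Glasgow and Cambridge males. It was called at -4.91 ± 0.08 (adjusted p = 1.14e-20) but not set apart, since Hikone males were as low as Antigua males, and its second probe set differed by -0.89 (adjusted p = 0.3275).

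**Figure D4:**
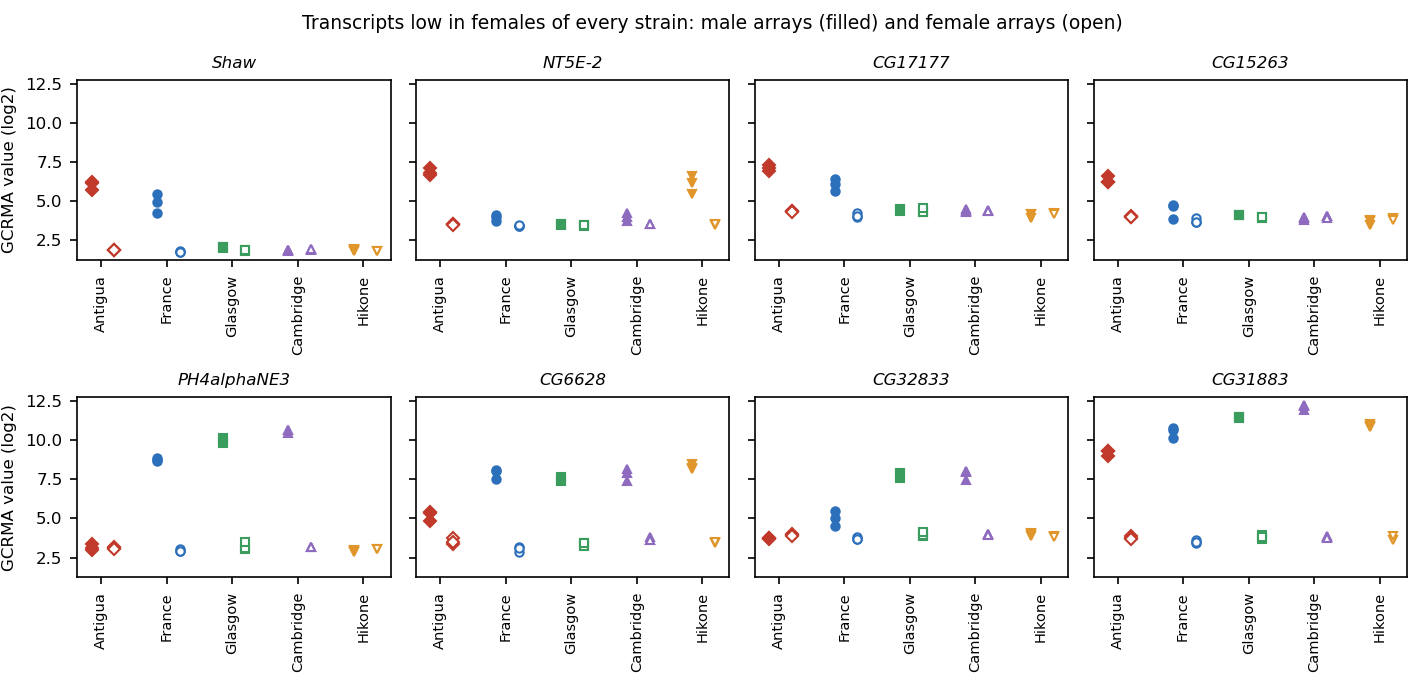
GCRMA values (log2) of 8 transcripts with little signal in females, with filled symbols for male arrays and open symbols for female arrays and Antigua at the left of each panel. The upper row holds genes higher in Antigua males and the lower row genes lower in Antigua males, and the female arrays lie at the low end of the scale in every panel.

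Genes with known roles in the testis moved as single genes. Taf12L, a testis form of a subunit of the transcription factor TFIID that is needed for spermatocyte expression, had 4.35, 4.52 and 4.47 in Antigua males, against 4.85 to 6.44 (median 5.88) in the other males (-1.32 ± 0.08, adjusted p = 5.3e-09). The testis bromodomain gene tbrd-3 had 2.95, 2.98 and 3.08 in Antigua males, against 3.22 to 5.62 (median 4.62) (-1.41 ± 0.18, adjusted p = 0.0014). Both were below every other male array, but the tbrd-3 call was lost without any 1 of the Antigua male arrays, and France males, at 3.53, were close to Antigua males. Neither gene is in the list of 49 testis and sperm genes, of which 0 were called and whose median difference was 0.14. Of 26 accessory gland genes, 0 were higher and 1 was lower, against 0.859% and 0.644% of all probe sets. The lower one was SP, the sex peptide that males transfer to females at mating. SP had 11.07, 10.91 and 10.88 in Antigua males, against 10.64 to 11.91 (median 11.45), a small difference of -0.39 ± 0.04 (adjusted p = 0.000139), and the groups overlapped. The call on SP was lost with Cambridge left out of the mean and with each sex fitted on its own. It was also lost with the filter on low values and with the alternative variance model.

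Digestive and immune genes gave large but uneven differences. LysX, a lysozyme, had 3.52, 3.66 and 4.58 in Antigua males, 5.91, 4.82 and 4.99 in Cambridge males, 6.43, 6.64 and 5.77 in Hikone males and means of 9.71 and 10.17 in France and Glasgow males. Antigua males were lowest, next to Cambridge males, at a difference of -3.93 ± 0.46 from the mean of the others (adjusted p = 0.000409), which was lost without Antigua male 1 or 2 and with Glasgow left out of the mean. Jon65Aii, a Jonah-type serine protease of the gut, had 3.58, 3.25 and 3.14 in Antigua males, against 4.88, 4.23 and 3.44 in Cambridge males and 3.44 to 9.10 (median 7.88) over all other males. It was called at -3.85 ± 0.35 (adjusted p = 5.99e-06) and overlapped with Cambridge males. Over all 34 lysozymes and digestive proteases, 0 were higher and 2, LysX and Jon65Aii, were lower, against 0.859% and 0.644% of all probe sets. A positive difference was found for 27 of the 34, and their median was 0.50, against -0.035 over all probe sets. The lysozyme LysD, for example, had 12.31, 12.26 and 12.39 in Antigua males, against 7.72 to 12.16 (median 9.36), and did not pass (difference 2.64 ± 0.45, adjusted p = 0.1248). Some lysozyme genes are closely similar copies whose probe sets can share signal, and how far this bears on the values here was not tested. Of 13 genes of carbohydrate digestion, 0 were called in males, and 10 had a positive difference. The median of the 13 was 0.74, against -0.035 over all probe sets.

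Among 9 measured antimicrobial peptide genes, 0 were higher and 1 was lower, against 0.859% and 0.644% of all probe sets. Def, the antibacterial peptide Defensin, had 5.10, 4.17 and 5.05 in Antigua males, against 5.05 to 9.07 (median 6.50) in the other males. Only the lowest of the other arrays reached the Antigua range, and the difference was -2.0 ± 0.22 (adjusted p = 0.000139), with France males the highest at 8.65. The call on Def was lost with France left out of the mean. PGRP-LA, of the peptidoglycan recognition protein family, had 4.84, 4.85 and 5.36 in Antigua males on a dim probe set, against 3.72 to 3.95 (median 3.81) (1.20 ± 0.08, adjusted p = 9.06e-09). Its brighter probe set differed by 0.76 and was not called, and by their brightest probe sets 0 of 28 genes of immune recognition and signalling were called. The serine protease teq, known as Tequila and from long-term memory, had 5.24, 5.22 and 5.56 in Antigua males, against 6.56 to 8.48 (median 8.16), a 5.53-fold lower level (-2.47 ± 0.14, adjusted p = 7.89e-10). The other 3 probe sets of teq differed by -0.27, -0.05 and -0.49, none of them called.

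Some genes of the clock, the eye and the nervous system were higher in Antigua males, where 1.50% of all probe sets were called. Clk, the transcription factor that drives the circadian feedback loop, had 7.78, 7.78 and 7.69 in Antigua males, against 5.13 to 6.68 (median 6.12) in the other males, a 3.12-fold difference (log2 1.64 ± 0.14, adjusted p = 1.6e-06). The 3 Antigua arrays lay close together and above the highest of the others. Clk was the 1 gene called of 13 clock genes, whose median difference was 0.15, and tim, a target of Clk, differed by 0.68 in males (adjusted p = 0.4225). The time of day at which flies were collected is not given in the sources used here. Cpn, a calcium-binding protein of photoreceptors, had 7.44, 7.21 and 7.79 in Antigua males, against 6.22 to 6.91 (median 6.38) (1.0 ± 0.13, adjusted p = 0.0028). It was the 1 gene called of 23 in phototransduction, whose median difference was 0.38 and whose mean level was 6.81 to 6.85 in Antigua males, against 6.35 to 6.79 in the other males. Among 23 neural and synaptic genes, 1 was called, Gad1, which makes the transmitter GABA, with 4.69, 4.53 and 5.04 in Antigua males, against 3.10 to 4.53 (median 3.23) (1.23 ± 0.09, adjusted p = 1.99e-07). The lowest Antigua array met the highest of the others, a France male. The median difference of these 23 genes was 0.08, and only 13 of them had a positive difference. Their mean was 4.56 to 4.87 in Antigua males, against 4.47 to 4.71, and the part of head or neural tissue in these results was not tested. GluClalpha, a glutamate-gated chloride channel, had 6.78, 6.80 and 6.63 in Antigua males, against 4.73 to 6.07 (median 5.62) (1.19 ± 0.14, adjusted p = 0.000296), and Dh31, a neuropeptide hormone that stimulates fluid secretion by the tubule, had 4.87, 5.12 and 5.29, against 3.57 to 4.71 (median 3.97) (1.0 ± 0.12, adjusted p = 0.000756). Both were above all other male arrays.

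Of 37 chemosensory genes, 2 were higher and 0 were lower, against 0.859% and 0.644% of all probe sets. Obp8a, an odorant-binding protein, had 3.51, 4.05 and 3.45 in Antigua males, against 2.13 to 3.93 (median 2.50) (0.92 ± 0.09, adjusted p = 2.81e-05), and CheB38c had 4.04, 4.23 and 3.78, against 3.17 to 3.76 (median 3.33) (0.64 ± 0.09, adjusted p = 0.0041). The CheB38c arrays did not overlap, whereas those of Obp8a did, and Obp8a was also the 1 gene called of 8 listed for ejaculatory duct and bulb. Both genes were near the range of 2 to 4, where differences are less reliable. In the lists of ovary (35 genes), muscle contraction (27), oxidative phosphorylation (58), heat shock (16), piRNA pathway (23) and haemocyte genes (21), 0 genes were called by their brightest probe set.

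The following set-apart genes lower in Antigua males belong to none of the lists and do not form a group. The gene udd, whose product acts in transcription by RNA polymerase I, had 7.02, 6.77 and 7.42 in Antigua males, against 7.81 to 10.40 (median 9.57) in the other males, a 4.85-fold lower level (-2.28 ± 0.15, adjusted p = 2.72e-08). Glasgow males, at 7.81, 8.07 and 8.10, were nearest, and the group means of the other strains were 10.14 in France, 9.75 in Cambridge and 9.51 in Hikone males. Vps29, of the retromer complex that returns cargo from endosomes, had 5.97, 6.31 and 6.16 in Antigua males, against 6.91 to 7.96 (median 7.72) (-1.46 ± 0.10, adjusted p = 4.69e-08). Lnpk, which shapes the endoplasmic reticulum, had 6.15, 6.12 and 6.56 in Antigua males, against 7.26 to 7.89 (median 7.62) (-1.30 ± 0.13, adjusted p = 2.07e-05). For all of these genes the Antigua male arrays were the lowest. CG7194 had 4.47, 4.52 and 4.69 in Antigua males, against 6.62 to 7.86 (median 7.43) (-2.80 ± 0.27, adjusted p = 1.41e-05), and CG13088 had 4.02, 4.14 and 4.02, against 5.15 to 6.89 (median 6.36) (-2.14 ± 0.14, adjusted p = 2.02e-08). An Antigua male mean below 5 with means of at least 5 in all 4 other male groups was found for 9 of the lower probe sets, and CG7194, CG13088 and Taf12L were among them. This pattern too is favoured by the rule for being set apart, and its share over all probe sets was not computed.

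Further genes of known role were scattered over the set-apart list. Among the higher ones, Abca3, of the ABC transporter family, had 7.46, 7.98 and 7.94 in Antigua males, against 5.71 to 7.20 (median 6.60) in the other males (1.29 ± 0.12). Alp4, an alkaline phosphatase, had 9.0, 8.97 and 9.15 in Antigua males, against 7.37 to 8.42 (median 7.78) (1.15 ± 0.13). Both lay above all other male arrays, with France males nearest for Alp4 and France and Glasgow males for Abca3. Syn2, a syntrophin, was raised at a lower level, with 4.75, 4.95 and 5.05 in Antigua males, against 3.31 to 3.96 (median 3.54) (1.38 ± 0.08), and so was Nckx30C, a sodium and calcium exchanger known from photoreceptors, with 3.76, 3.42 and 4.01, against 2.25 to 3.07 (median 2.33) (1.21 ± 0.13). Nckx30C is also measured by a brighter probe set, which differed by 0.94 in males and was not called. Among the lower ones, Ude, which degrades DNA that contains uracil, had 5.66, 5.62 and 5.45 in Antigua males, against 6.23 to 7.25 (median 6.76) (-1.15 ± 0.10), and Mthfs, an enzyme of folate metabolism, had 3.99, 3.88 and 3.63, against 4.24 to 5.50 (median 4.83) (-1.03 ± 0.12). In females these 2 genes differed by 0.07 and 0.01 and were not called.

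Antigua females, measured on arrays of their own, differed from females of the other strains in 226 probe sets (1.62%), 114 higher (0.816%) and 112 lower (0.802%). Of the 55 probe sets set apart as higher in males, 14 were called higher in Antigua females, or 25.5%, and 0 were called lower. Of the 28 set apart as lower, 6 were called lower in Antigua females, or 21.4%, and 0 were called higher. The difference in females had the sign of that in males for 53 of the 55 and 16 of the 28, with medians of 0.58 and -0.15. Over all probe sets the sign was the same for 49.7% and the median in females was 0.04, so that the 16 of 28 are near the background share. The 14 included CG3857, CG13947, CG9360 (2.44), CG10513, Cpr72Ec (2.24), Cyp6w1 (2.08), CG17751 (2.03), Cyp6a8 (1.45), Oatp58Dc (1.32), M7BP and Hasp. The 6 included udd (-2.50), teq (-1.61), Vps29 (-0.93) and CG10863 (-0.93). Among the 210 called in males, CG4199 was the 1 probe set called in the opposite direction in females, at 0.46 in males (adjusted p = 0.0095) and -0.69 in females, and its call in males was lost when any 1 of 23 arrays was left out.

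**Figure D5:**
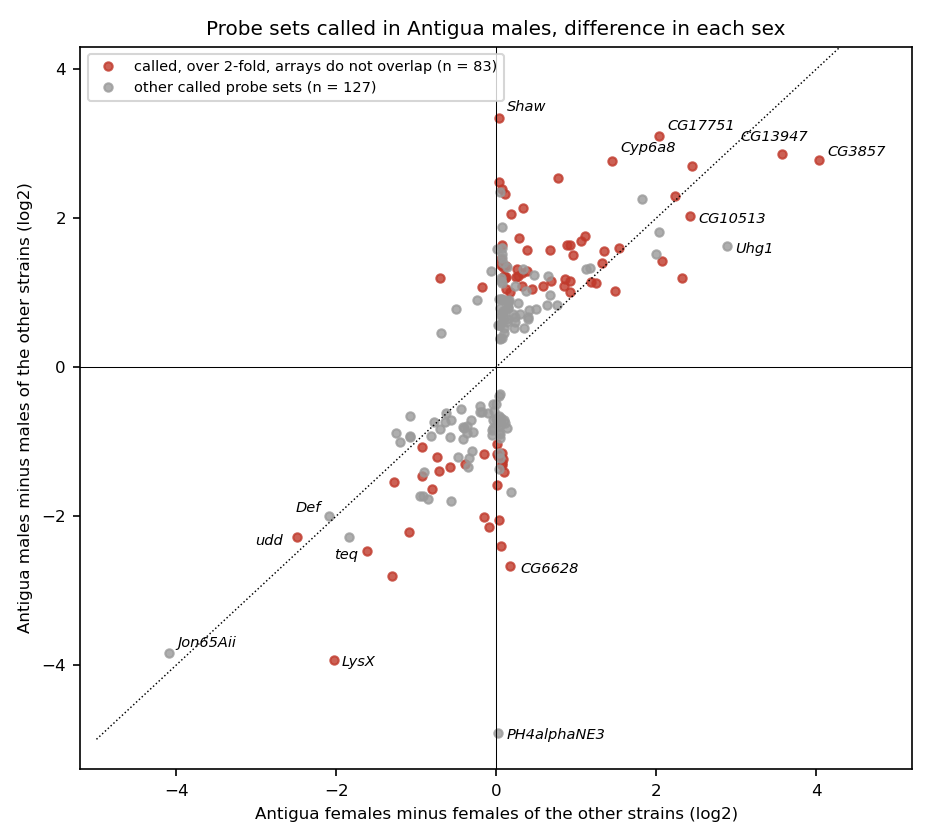
Difference of Antigua males from the other males (vertical, log2) against the difference of Antigua females from the other females (horizontal, log2) for the 210 probe sets called in males, with the 83 set apart in red and the others in grey and a dotted line at equal differences. Points on the vertical line at 0, such as Shaw, CG6628 and PH4alphaNE3, have a female difference close to 0, and CG13947, CG3857, udd and Jon65Aii lie near or beyond the dotted line.

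The difference between the sexes was tested as an interaction, called in 76 probe sets (0.544%). Since this test uses the same male arrays, its values are given for single genes. It was 3.32 for Shaw (adjusted p = 1.33e-09), 2.45 for NT5E-2 (adjusted p = 2.36e-06), -2.85 for CG6628 (adjusted p = 6.31e-08) and -2.09 for CG31883 (adjusted p = 2.17e-08), all of which were low in females. CG3857 had a negative value of -1.26 (adjusted p = 0.00016), its Antigua difference being larger in females. For Cyp6a8 the value was 1.32 (adjusted p = 0.0109) and for Clk it was 0.71 (adjusted p = 1.0), neither called. The interaction was larger in size for a gene that was not called in males. Desat2, a fatty acid desaturase that makes a female cuticular hydrocarbon known from African and Caribbean strains, had 10.52, 10.09 and 10.13 in Antigua females, against group means of 3.30 to 3.54 in the other females, at an interaction of -6.56 (adjusted p = 1.73e-20), whereas Antigua males averaged 3.70 and differed by 0.23 from the other males.

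The thresholds cut through a continuous range of values. Just inside the 2-fold limit among the set-apart genes stood Cpn at 1.0, Dh31 at 1.0 and Hasp at 1.03, and just outside it, called and not overlapping, stood Atf-2 at 0.97, Vta1 at -0.94 and Idgf6 at -0.93. Among probe sets over 2-fold and not overlapping, those nearest to the p limit were CG5535 and a probe set shared by CG11889 and CG11891 inside it (adjusted p = 0.0078 for both) and Grip84 and CG4577 outside it (adjusted p = 0.0123 and 0.019).

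Of 72 genes named here with a call in males, 48 stayed called without any 1 of the 29 arrays, and 24 lost the call without 1 or more, with the direction kept in every case. Most of these rested on the 3 Antigua male arrays. Without any 1 of them, adjusted p was 0.0101 to 0.0192 for CG13947, 0.014 to 0.0157 for CG10513, 0.0225 to 0.0431 for tbrd-3, 0.0266 to 0.0985 for Ace and 0.033 to 0.0995 for Oatp58Dc. It was 0.022 to 0.0408 for Cyp6a20, 0.022 to 0.1368 for Hasp, 0.0104 to 0.0249 for M7BP, 0.0137 to 0.0776 for CG13658 and 0.0169 to 0.0561 for CG8072. With some arrays left out it reached 0.0199 for LysX, 0.056 for CG14949, 0.1622 for Cpn, 0.2331 for CheB38c, 0.0448 for Dh31, 0.0118 for GluClalpha, 0.0331 for Mthfs, 0.0279 for Atf-2, 0.0122 for Idgf6 and 0.1534 for CG32369. For the genes nearest to the limit it reached 0.1644 for Cyp6w1, 0.413 for Cyp28a5, 0.2789 for CG4199 and 0.3563 for CG5535.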

How the data were processed

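The data are the processed values of 29 arrays. Per the labels, the authors computed log2 values with GCRMA, which corrects the background by the GC content of probes and then quantile-normalizes all arrays; its version is not given in the sources used here. The values were used as deposited, with 44 control probe sets left out and no filter on low values. Such normalization assumes that most transcripts do not differ between arrays, also between the sexes.

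Groups were taken from the labels. All 29 arrays entered 1 linear model of 10 group means, fitted with lmFit and eBayes of limma 3.58.1 (R 4.3.3). Antigua males were tested against the equally weighted mean of the 4 other male groups, Antigua females likewise, and the difference of both as the interaction. P-values were adjusted by Bonferroni over 13966 probe sets and called below 0.01. On simulated data for the male comparison over 13966 probe sets, 79% of 100 planted differences of 1 and 97% of 100 planted differences of 2 were recovered, with 0 false calls. The simulated arrays held independent normal noise around 1 mean for each probe set. They had no other strain or sex differences and no odd arrays, so the 0 false calls do not carry over to the measured arrays. The precision is limited by the number of arrays.

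Of the probe sets, 12442 carry 1 gene symbol, 327 several and 1197 none in the platform annotation, and 12435 were placed in the RefSeq gene table of Release 6, used here for names, arms and order. Gene lists take the brightest probe set of a gene. Genes named are the 15 highest and 15 lowest set apart, up to 4 called members a list and the 5 highest and 5 lowest interactions, not all of which are described, and 28 further genes (and their neighbours) chosen after their values were seen. The comparison, the gene lists and the rule were chosen with earlier results of these data known. Alternatives changed the adjustment, the centring, the normalization, the filter, the variance model, the strains in the mean and the definition of set apart, and left out each array. Leaving out Cambridge male 1 together with France female 3 was added after seeing the data. The authors' mean or test columns were not used. Figures were drawn with matplotlib 3.10.9.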

Additional observations from a re-analysis of the deposited data

Results flagged for a closer look

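The genes given here are those named in the text for which the Antigua difference in males and that in females differed by limma's interaction test at a Bonferroni adjusted p below 0.01. Values are the male difference minus the female difference on the log2 scale. Groups of 3 arrays were too small for a check of single outlying arrays.

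The value was positive, with the male difference the larger, for Shaw (3.32), NT5E-2 (2.45), CG17177 (2.32), CG15263 (2.21), CG11891 (1.81), CG12224 (1.77), CG4704 (1.56), CG15408 (1.45), Syn2 (1.32) and PGRP-LA (1.09). In all of these except CG12224 and CG11891 the female difference was at most 0.12, and it was 0.78 for CG12224 and 0.33 for CG11891. The choice of named genes used the same male arrays. Shaw, NT5E-2, CG17177, CG15263 and CG4704 were low in females of every strain, so little can be read from their small female differences. CG4199, at 1.15, was higher in Antigua males and lower in Antigua females.

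The value was negative for genes lower in Antigua males with little difference in females, namely PH4alphaNE3 (-4.93), CG6628 (-2.85), CG32833 (-2.46), CG31883 (-2.09), CG13088 (-2.05), Cyp309a1 (-1.86), CG14419 (-1.59), Taf12L (-1.38) and Ude (-1.22). Of these, CG14419 and Ude had signal in females too, at means of 5.53 and 5.45 in Antigua females, against group means of 4.46 to 6.35 and 5.33 to 5.47 in the other females. CG3857 (-1.26) was higher in both sexes and more so in females, at 2.78 in males and 4.04 in females.

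For 3 genes the difference was in females. Desat2 (-6.56) was raised in Antigua females by 6.79 and differed by 0.23 in males. TwdlN (-4.52), of the Tweedle family of cuticle proteins, was raised in Antigua females by 4.46, with 7.11, 7.92 and 6.29 in Antigua females, against 2.38 to 3.08 as group means in the other females on the brighter of its 2 probe sets. CG15317 (2.03) was lower in Antigua females, at 3.81, 4.01 and 3.67, against group means of 5.34 to 6.65 in the other females, and differed by -0.18 in males.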

How the results depend on the processing

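No called difference of a named gene changed its direction under any alternative. The number of called probe sets in males (210), in females (226), for the interaction (76), set apart (83) and set apart with the same call in females (20) depended on the threshold. A Benjamini-Hochberg adjusted p below 0.01 gave 968, 1314, 345, 125 and 65, and a Bonferroni adjusted p below 0.0001 gave 95, 80, 26, 50 and 9. With each sex fitted on its own, on fewer arrays, 113 were called in males, 44 in females, and 10 alike in both. Without Cambridge in the mean of the other strains 126 were set apart. Set apart at any size of difference gave 129, and called against the mean and each single strain gave 22. Centring each array on its median moved the median of all probe sets to 0.01 and gave 207 calls, 133 of them higher. Leaving out each array in turn gave 132 (without Antigua male 3) to 228 in males, 116 (without Antigua female 1; 119 without Antigua female 2) to 310 in females, 54 to 92 for the interaction, 63 to 91 set apart and 12 (without Antigua male 3; 13 without Antigua male 1) to 24 alike, each highest count without Cambridge female 3. Of 72 named genes with a call, 27 lost it with each sex fitted on its own, 28 at the stricter Bonferroni limit, 7 with the quantile normalization repeated, and 6, 8, 10 and 6 without France, Glasgow, Cambridge and Hikone in the mean.

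Replicate numbers are not stated to pair samples. Same-numbered male arrays of Antigua and another strain correlated in their deviations from the group means by -0.126 to 0.207 over 12 pairs, with 3 above 0.1, and all 3 Antigua male arrays correlated best on average with their own number. With the replicate number as a block, 195 were called and 80 set apart, and the calls on CG4199 (adjusted p = 0.0233, limma) and CG5535 (0.0171) were lost.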
